A study of Flaveria bidentis and Flaveria robusta with 100 samples.

Results

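A set of 22 leaf genes had their daily maximum 4 h after lights on in both Flaveria bidentis, a C4 plant, and Flaveria robusta, its C3 relative. The set was chosen by its values on the light and dark days. A gene entered when it averaged at least 5 RPM (reads scaled to the library's total) over all 50 time-point means and when its highest of 6 hourly averages, plus 1, was at least 3 times its lowest, plus 1, in both species. In both, the highest hour also had to be zeitgeber time 4 (ZT04, hours counted from lights on). Of 21869 genes in the table, 10467 reached 5 RPM and 890 of those reached the ratio of 3 in both species. Of the 890, 525 had the same highest hour in both species. In RPM as deposited ZT04 was the least frequent of these hours, with 22 genes. There were 135 at ZT00, 73 at ZT08, 206 at ZT12, 47 at ZT16 and 42 at ZT20. The values in light and dark therefore chose the genes and are given as a description, with no test.

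Mature leaves of F. bidentis and F. robusta were collected every 4 h, with 2 labelled replicates at each of 25 time points per species, which gave 100 libraries. The labels name no transgene or agent, and do not say whether the replicates were separate plants. All plants spent 36 days in a greenhouse before 6 days in a growth chamber (10 h light, 22 °C, and 14 h dark, 20 °C). The first 2 days sampled kept that regime (LD, light and dark), the next 2 days were in constant light (LL), and LL ended with a single ZT00 sample on its day 3. LL always came after LD, so the light regime and the day of sampling cannot be told apart. Hours ZT00 to ZT08 of LL day 1 still followed a dark night and were lit in LD too.

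Every value below is the authors' mean RPM of 1 time point, reported in steps of 0.5, so no spread between replicates is attached to a single mean. All log2 differences are on the log2(mean RPM + 1) scale, which understates the change of low genes. LD ratios of highest to lowest also add 1 to both values. Percentages or multiples of the level at another hour use plain RPM. A standard error (SE) or p-value measures how far time-point means scatter around the fitted model. RPM is not scaled by transcript length, so levels are compared between times and species for 1 gene, not between genes. The table names genes by Arabidopsis identifier, and the roles given are those known in Arabidopsis. How evenly reads of each species were assigned to these identifiers was not tested. A species difference in level cannot be told apart from uneven assignment.

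In plants, many transcripts of the chloroplast peak in a fixed order through the day, under control of both light and the circadian clock, an oscillator of mutually repressing morning and evening genes. The xanthophyll cycle converts violaxanthin to zeaxanthin in strong light and back in weak light, and violaxanthin also lies upstream of the stress hormone abscisic acid. Starch is made in the chloroplast by day and broken down by night.

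The 22 genes fell into several roles. LNK1 (AT5G64170, listed in the table as dentin sialophosphoprotein-related) is a clock co-activator of evening genes. GBSS1 (AT1G32900, a glycosyltransferase in the table) makes the amylose of starch, and PPT2 (AT3G01550) carries phosphoenolpyruvate across the chloroplast envelope. GOLS1 (AT2G47180) and GOLS3 (AT1G09350) make galactinol, the donor for raffinose sugars. A group of 4 belongs to carotenoids and abscisic acid: ZEP (AT5G67030), the epoxidase that regenerates violaxanthin, NCED4 (AT4G19170), a carotenoid-cleaving dioxygenase also called CCD4, and the abscisic acid 8'-hydroxylases CYP707A2 (AT2G29090) and CYP707A4 (AT3G19270), which break the hormone down. ELIP1 (AT3G22840) is an early light-induced protein of the thylakoid that protects against excess light.

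The other members carry mainly family names in the table. AT1G54570 is an esterase/lipase family gene, known in Arabidopsis as a phytyl ester synthase, and AT3G57680 is a peptidase of the S41 family. AT3G53830 and AT3G55580 belong to the RCC1 (regulator of chromosome condensation) family, and AT2G45180 and AT2G37870 to the lipid-transfer and 2S albumin family. The rest are AT5G43260 (a DnaJ-related chaperone), AT5G35970 (a P-loop nucleoside triphosphate hydrolase), AT5G19850 (an α/β-hydrolase), AT1G52590 (a DCC thiol-disulphide oxidoreductase), AT1G11770 (a FAD-binding berberine-type protein) and AT3G52740, the 1 member with no description.

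The libraries had the signature of leaf: the 15 light harvesting genes of a fixed list summed to at least 7333 RPM in every mean. Total RPM was nearly fixed, between 999418 and 1000090 per mean. Scaling factors by the trimmed mean method (TMM), which rescale each mean by the bulk of its genes, were 1.07 to 1.36 in the 12 dark LD means. They were 0.812 to 1.101 in 34 lit means and 1.196 to 1.28 in 4 others, which stand apart: F. robusta LL day 2 at ZT04, ZT08 and ZT20 and LL day 3 at ZT00. In those 4 means the 3 measured senescence markers summed to 141 to 217 RPM, against 63 to 123.5 in the other F. robusta LL means. The 4 measured guard cell markers summed to 86.5 to 98 RPM there, against 61 to 85.5, and light harvesting genes to 18741.5 to 24061.5 RPM, against 25517 to 119462. The 5 measured vascular markers summed to 1443.5 to 1771.5 RPM, against 709 to 1702.5, and the 3 measured dividing cell markers to 7 to 10.5 RPM, against 5 to 12.5. No list had all of its measured markers at 0. The part of these shifts in the results below was not tested, and LL results for F. robusta are given with and without the 4 means where they matter.

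**Figure D1:**
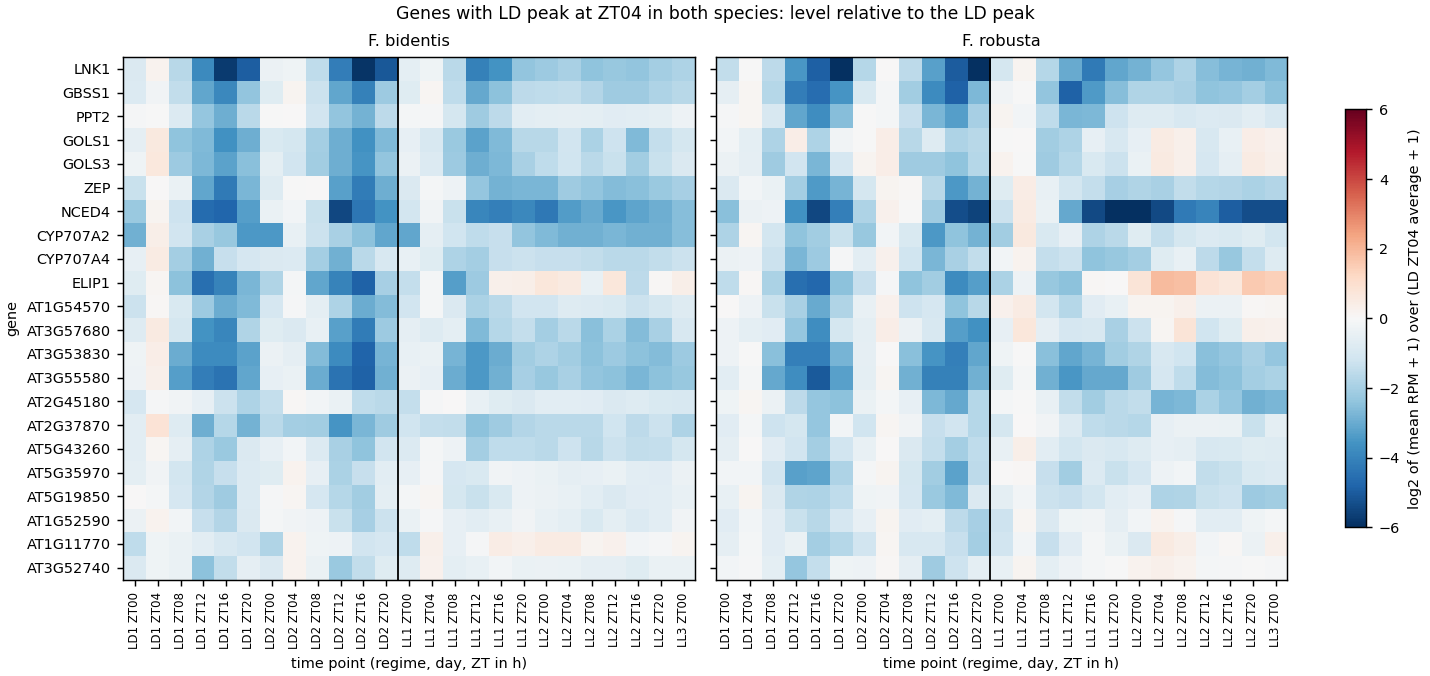
Heat map of the 22 genes (rows) over the 25 time points (columns) of F. bidentis (left) and F. robusta (right). Colour is log2 of mean RPM + 1 over the LD average at ZT04 + 1, and the vertical line marks the start of LL: dark LD hours are blue, and most genes stay at an intermediate blue on LL day 2 while ELIP1 turns red in F. robusta.

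The clock gene LNK1 had the widest daily swing among the 22 genes in both species. Its LD averages at ZT00, ZT04, ZT08, ZT12, ZT16 and ZT20 were 217.75, 325, 107.25, 19.75, 4.75 and 9 RPM in F. bidentis, and 76.75, 236.25, 78.75, 21.75, 6.75 and 2.25 RPM in F. robusta. The ratio of highest to lowest, each plus 1, was 56.7 in F. bidentis, with 73 in F. robusta. The lowest hour was ZT16 in F. bidentis and ZT20 in F. robusta. By ZT00 F. bidentis already stood at 67% of its ZT04 level, against 32.5% in F. robusta. At ZT04 on the 4 successive days (LD 1, LD 2, LL 1, LL 2), LNK1 was at 376, 274, 274.5 and 83.5 RPM in F. bidentis and at 233, 239.5, 263.5 and 46 RPM in F. robusta.

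Over the 6 means of LL day 2 LNK1 stayed between 61 and 83.5 RPM in F. bidentis (median 69) and between 31.5 and 65 RPM in F. robusta (median 36.5). These levels lie between the LD trough and peak, at 62.3% and 59.1% of the way up on the log2 scale. In both species the lowest LL day 2 mean was above every dark LD mean of the gene.

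The starch synthase gene GBSS1 and the translocator gene PPT2 moved in parallel. Across the 25 means the correlation of their log2 values was 0.922 in F. bidentis and 0.946 in F. robusta. This is a description over means that share libraries and the light cycle. The means include the LD values by which the rule chose both genes, so a high correlation was partly built in. GBSS1 gave similar values with AT3G53830 (0.916 and 0.938) and AT3G55580 (0.916 and 0.920). GBSS1 averaged 1020.25, 1736, 670.5, 199.25, 110.5 and 361.5 RPM from ZT00 to ZT20 in F. bidentis LD, and 536.25, 878.5, 238.25, 55.5, 33 and 105.25 RPM in F. robusta. The ratio was 15.6 in F. bidentis, with 25.9 in F. robusta. In the dark GBSS1 was higher at ZT20 than at ZT16 by 1.70 log2 units in F. bidentis and by 1.64 in F. robusta, so its level was on the way up before lights on. PPT2 had ratios of 7.40 and 11.3 and a nearly flat morning: its ZT00 average was 97.2% of its ZT04 average in F. bidentis, with 96.8% in F. robusta.

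At ZT04 GBSS1 stood at 1496.5, 1975.5, 1873 and 619 RPM over the 4 successive days in F. bidentis, and at 950, 807, 858.5 and 247 RPM in F. robusta. LL day 1 therefore matched the LD days at this hour and LL day 2 did not. Among the 15 starch synthesis genes of a fixed list that reached 5 RPM, GBSS1 and SS1 (a starch synthase) were highest at ZT04 in both species, SS1 with ratios of 1.88 and 3.30. GBSS1 was the 1 list gene that met the rule.

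ZEP and NCED4, which both act on carotenoids, differed in the hours beside ZT04. ZEP averaged 634.75, 1301.25, 1138.25, 142.25, 69 and 182 RPM from ZT00 to ZT20 in F. bidentis, and 536.75, 1045.5, 942.5, 292.75, 97.25 and 148 RPM in F. robusta. Its ZT08 average was 87.5% of the ZT04 average in F. bidentis and 90.15% in F. robusta. NCED4 averaged 308.5, 625.5, 253.75, 18.75, 26 and 56.75 RPM in F. bidentis, and 330, 1460, 1303.5, 225.25, 34 and 57 RPM in F. robusta. The hours beside the NCED4 peak differed by species: ZT08 stood at 40.6% of ZT04 in F. bidentis, against 89.3% in F. robusta, and ZT00 at 49.3%, against 22.6%.

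NCED4 held its peak into LL day 1 and had lost it by LL day 2. At ZT04 on the 4 successive days (LD 1, LD 2, LL 1, LL 2) it was at 699.5, 551.5, 543 and 60.5 RPM in F. bidentis, and at 1146.5, 1773.5, 2062.5 and 33 RPM in F. robusta. Its 6 means of LL day 2 ran from 31.5 to 82.5 RPM in F. bidentis (median 65.25) and from 20.5 to 94 RPM in F. robusta (median 41). In F. robusta this was 7.27% of the way from LD trough to LD peak, and 7.39% without the 3 LL day 2 means that stand apart. ZEP was at 1319.5, 1283, 1193.5 and 297 RPM at ZT04 over the same 4 days in F. bidentis and at 924.5, 1166.5, 1417.5 and 273.5 RPM in F. robusta. Of 13 measured carotenoid synthesis genes, ZEP alone peaked at ZT04 in both species with any ratio.

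**Figure D2:**
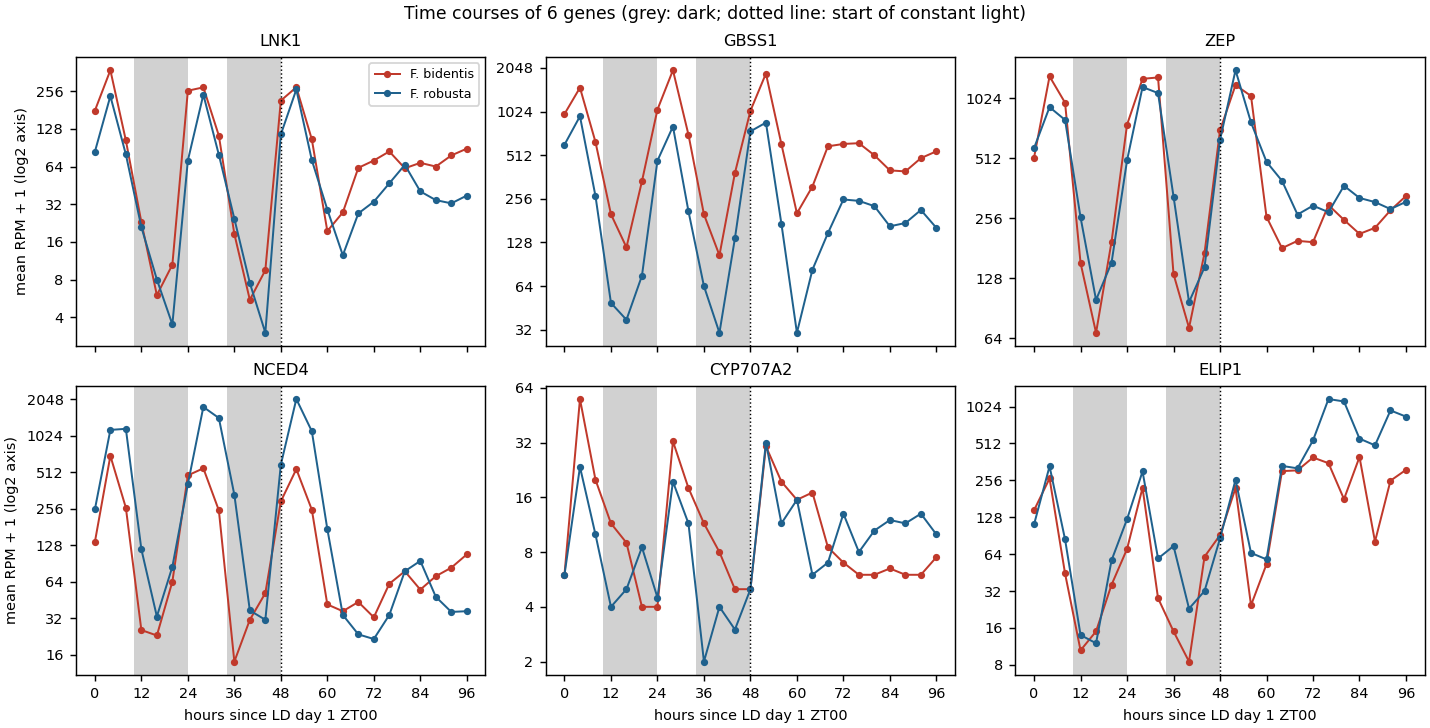
Mean RPM + 1 on a log2 axis against hours since LD day 1 ZT00 for 6 genes, with F. bidentis in red and F. robusta in blue, grey for dark and a dotted line at the start of LL. LNK1, GBSS1, ZEP and NCED4 are high at ZT04 of LD day 1, LD day 2 and LL day 1 and swing less on LL day 2, and ELIP1 reaches 1179.5 RPM in F. robusta LL.

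Of the abscisic acid hydroxylase genes, CYP707A2 had the sharper peak. It averaged 4, 43, 18, 10.5, 7.5 and 3.5 RPM from ZT00 to ZT20 in F. bidentis, and 4.25, 20.5, 9.75, 2, 3.5 and 4.75 RPM in F. robusta. ZT04 was 2.39 times the next highest hour in F. bidentis and 2.103 times in F. robusta. Unlike most members it was still low at ZT00, at 9.30% of ZT04 in F. bidentis, with 20.7% in F. robusta. At ZT04 of LL day 2 CYP707A2 was at 5 RPM in F. bidentis and 7 RPM in F. robusta, against 29.5 and 31 RPM on LL day 1. CYP707A4 had ratios of 7.30 and 6.69 and a broader morning, with ZT00 at 60.9% of ZT04 in F. bidentis and 70.9% in F. robusta. Another gene of this family, CYP707A1 (AT4G19230), lay just outside the set with ratios of 7 and 2.77.

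ELIP1 combined a sharp ZT04 peak in LD with high levels in constant light. Its LD averages were 107.25, 243, 35.25, 11.75, 10.75 and 47.5 RPM from ZT00 to ZT20 in F. bidentis, and 116.75, 317.25, 70.75, 43.25, 16.5 and 43.5 RPM in F. robusta. ZT08, with the lights still on, was down at 14.5% of ZT04 in F. bidentis and 22.3% in F. robusta. On LL day 1 the dip at ZT08 was still there (23.5 RPM in F. bidentis and 64.5 RPM in F. robusta), but ZT16, dark in LD, stood at 303.5 and 335 RPM. The 6 means of LL day 2 ran from 80 to 396 RPM in F. bidentis (median 303) and from 493.5 to 1179.5 RPM in F. robusta (median 756). All 6 in F. robusta were above its highest LD mean of 332.5 RPM. The 3 of these means outside the set that stands apart were 542, 560 and 493.5 RPM.

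The galactinol synthase genes were low throughout and similar to each other, with a correlation over 25 means of 0.982 for F. bidentis and 0.895 for F. robusta. The RCC1 pair AT3G53830 and AT3G55580 gave 0.988 and 0.971. Both pairs were correlated over means that include the LD values by which the rule chose the genes. Members of 1 family can share reads when reads are assigned across species, so these pairs may not be independent. In F. bidentis the LD peak of the galactinol synthase genes rested on 1 day: at ZT04 GOLS1 was at 27.5 RPM on LD day 1 and 8 RPM on LD day 2, and GOLS3 at 34.5 and 9.5 RPM. AT2G37870 had the same kind of imbalance there, with 99.5 RPM on LD day 1 and 13 RPM on LD day 2, and AT3G57680 had 172 and 65 RPM. The LD days of F. robusta differed too. On its LD day 1 GOLS1 was at 7.5 RPM at ZT04 and 16 RPM at ZT12, in the dark. On LD day 2 it was at 16 and 6.5 RPM. CYP707A4 was at 21 RPM at ZT04 and 24.5 RPM at ZT20 of LD day 1 in F. robusta. AT1G54570, AT3G57680 and GOLS3 were higher at ZT00 than at ZT04 on that day. Further members had another hour above ZT04 on 1 LD day. In F. bidentis they included ZEP (LD day 2, ZT08 1303.5 RPM, ZT04 1283 RPM). AT3G53830 and AT1G52590 were higher there at ZT00 than at ZT04 of LD day 2, and AT5G19850 of LD day 1. In F. robusta NCED4 read 1169.5 RPM at ZT08 and 1146.5 RPM at ZT04 of LD day 1. PPT2 read 205 RPM at ZT00 and 192 RPM at ZT04 of its LD day 2.

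The RCC1 genes were high at both ZT00 and ZT04 and had fallen steeply by ZT08. AT3G55580 averaged 32.5, 42.75, 4, 1.25, 0.75 and 4.5 RPM from ZT00 to ZT20 in F. bidentis and 20.75, 32.25, 3.25, 1.25, 0.5 and 3 RPM in F. robusta. Its level at ZT08 was 9.36% of that at ZT04 in F. bidentis and 10.1% in F. robusta, although both hours were lit. AT3G53830 behaved likewise, with ZT08 at 11.3% and 12.3% of ZT04, and was listed at 0 in 1 LD mean of F. bidentis and 3 of F. robusta.

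Members differed from each other in the hours beside ZT04. The second-highest LD hour was ZT00 for 14 members in F. bidentis, with 15 in F. robusta, and ZT08 for 8 and 5. The lowest hour was ZT16 for 14 members in F. bidentis, with 17 in F. robusta, and for 13 of them in both. In the dark ZT20 was above ZT16 for 18 members in F. bidentis and 20 in F. robusta, by at least 1 log2 unit for 10 and 11. The lead of ZT04 over the second-highest hour ran from 1.03 to 2.39 times in F. bidentis (median 1.49) and from 1.03 to 3 times in F. robusta (median 1.35). With samples every 4 h a small lead does not place the peak more finely than the interval. LD ratios had a median of 9.47 in F. bidentis, with 6.93 in F. robusta.

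The set is bounded by a threshold rather than a gap. The members nearest to the ratio of 3 were AT1G52590 (3.05), AT2G37870 (3.11), AT1G11770 (3.15), AT2G45180 (3.30) and AT5G35970 (3.61), each by the lower of its 2 species. Just outside were AT5G61670 (2.85), CYP707A1 (2.77), AT5G39790 (2.74), AT5G50100 (2.71) and AT1G68660 (2.69). ZT04 was the highest LD hour in both species for 113 genes of any ratio. With TMM factors applied first, 40 genes met the rule: 20 of the 22 and 20 others, while PPT2 and AT5G19850 dropped out. Genes peaking at the other hours were not counted that way, so the rank of ZT04 among hours holds for RPM as deposited.

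LL day 1 gave a further morning after a dark night that the rule had not used. Among ZT00, ZT04 and ZT08 of that day, ZT04 was highest for 15 of 22 members in F. bidentis, and for 20 of 22 in F. robusta. Over all 10467 genes of at least 5 RPM the same held for 14.3% in F. bidentis and 23.1% in F. robusta. Over all 6 hours of LL day 1, ZT04 was highest for 13 members in F. bidentis, where the share over all genes was 6.7%. In F. robusta it was highest for 18 members, with 7.15% over all genes. With TMM factors ZT04 was highest of the 3 hours for 16 and 18 members, beside 26.2% and 26.5% of all genes. Of the 6 hours it was then highest for 15 and 17 members, beside 16.6% and 14.9%. The ZT04 level of LL day 1 was, at the median, 90.8% of the LD average in F. bidentis (36.4% to 126%) and 103% in F. robusta (81.2% to 160%). The 5 lowest values in F. bidentis belonged to AT2G37870, GOLS1, GOLS3, AT3G57680 and CYP707A4, which were all higher at ZT04 of LD day 1 than of LD day 2 (CYP707A4 at 25 and 9.5 RPM).

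Light through the night hours of LL day 1 went with higher levels than darkness in LD. Averaged over ZT12, ZT16 and ZT20, LL day 1 was above LD for 22 members in F. bidentis, where 31.1% of all genes were, and for 18 in F. robusta, where 21.3% were. With TMM factors these counts were 22 and 21, beside 52.6% and 52.8% of all genes. The median difference was 0.81 log2 units in F. bidentis, with 0.88 in F. robusta, beside -0.15 and -0.22 over all genes. With TMM factors it was 0.95 and 1.02, beside 0.02 and 0.02 over all genes. Unscaled, at ZT16 it was 1.25 and 1.305 log2 units, with 21 members above LD in F. bidentis (27% of all genes) and 20 in F. robusta (27.9%). With TMM factors 22 and 21 members were above LD at ZT16, beside 52.5% and 49.7% of all genes. In F. bidentis GBSS1 at ZT16 read 310.5 RPM on LL day 1, against 117.5 and 103.5 RPM in LD. In F. robusta it read 82 RPM, against 36.5 and 29.5 RPM. LNK1 at ZT20 read 61.5 RPM, against 9.5 and 8.5 RPM, in F. bidentis, and 26 RPM, against 2.5 and 2 RPM, in F. robusta. LD night values entered the rule as the low end of the ratio, so these differences are a description.

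**Figure D3:**
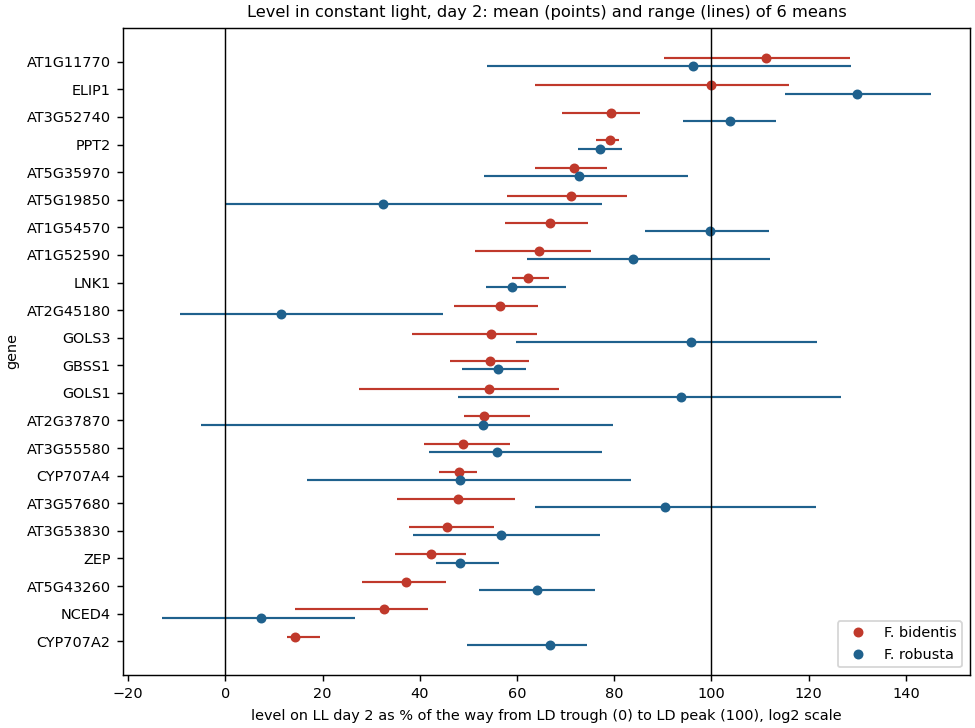
Level on LL day 2 for each gene as a percentage of the way from its LD trough (0) to its LD peak (100) on the log2 scale, with points for the mean and lines for the range of 6 means, F. bidentis in red above F. robusta in blue. Most points lie between the vertical lines at 0 and 100, and NCED4 in F. robusta lies at 7.27%.

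By LL day 2 the daily swing was smaller and most members sat at a middle level. The median range over 6 hours was 3.24, 2.09 and 0.52 log2 units for F. bidentis in LD, LL day 1 and LL day 2, and 2.79, 2.39 and 1.36 in F. robusta. For LL day 2 in F. robusta it was 1.06 with TMM factors. Of the 6 F. robusta means of LL day 2, 3 stand apart, the ZT04 mean among them. The F. robusta range and the ZT04 count below were not computed without these 3 means. Over all genes the medians were 0.96, 0.81 and 0.40 in F. bidentis, with 0.91, 0.79 and 0.73 in F. robusta. ZT04 was the highest hour of LL day 2 for 11 members in F. bidentis (9.48% of all genes) and 9 in F. robusta (24.3%), or 8 and 6 with TMM factors (13.9% and 16.2%). The range on LL day 2 was below that in LD for 22 of 22 members in both species, and for 92.8% of all genes in F. bidentis, with 70.3% in F. robusta. The rule asked for a wide LD range, so nothing is read from that count. The level on LL day 2 lay, at the median, 54.6% of the way from LD trough to LD peak in F. bidentis, with 65.5% in F. robusta, and 58.1% in F. robusta without the 3 LL day 2 means that stand apart.

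Individual members spread widely around that middle. AT1G11770 was above its LD peak in F. bidentis (111%), and ELIP1 (130%) and AT3G52740 (104%) were above theirs in F. robusta. Without the 3 means ELIP1 remained above its LD peak (118%) and AT3G52740 was level with its own (100.2%). At the other end were CYP707A2 in F. bidentis (14.3%) and NCED4 (7.27%) and AT2G45180 (11.55%) in F. robusta, the last at 28.7% without the 3 means. CYP707A2 stood at 66.8% in F. robusta. AT2G45180 stood at 56.5% in F. bidentis, and ELIP1 at 99.8%. These positions carry no test.

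The question whether ZT04 stood above the subjective night in constant light was asked with both LL days together, by limma. After Benjamini-Hochberg adjustment over 13563 genes it called 0 of 22 members and 0% of all genes in either species. At unadjusted p under 0.05, 10 members were higher at ZT04 in F. bidentis, where 1.45% of all genes were, and 11 in F. robusta, where 2.49% were. With TMM factors these were 11 members beside 2.87% and 9 beside 3.32%. The estimate was above 0 for 22 of 22 members in both species, with a median of 0.78 log2 units for F. bidentis and 0.95 for F. robusta, beside -0.13 and 0.03 over all genes. The members of smallest p were GBSS1 (1.51, SE 0.41), AT1G54570 (0.87, SE 0.26) and AT5G19850 (0.62, SE 0.22) in F. bidentis, each with an adjusted p of 0.541. In F. robusta they were AT3G55580 (2.22, SE 0.51), AT3G53830 (1.98, SE 0.48) and AT5G43260 (0.85, SE 0.24), each with an adjusted p of 0.774.

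**Figure D4:**
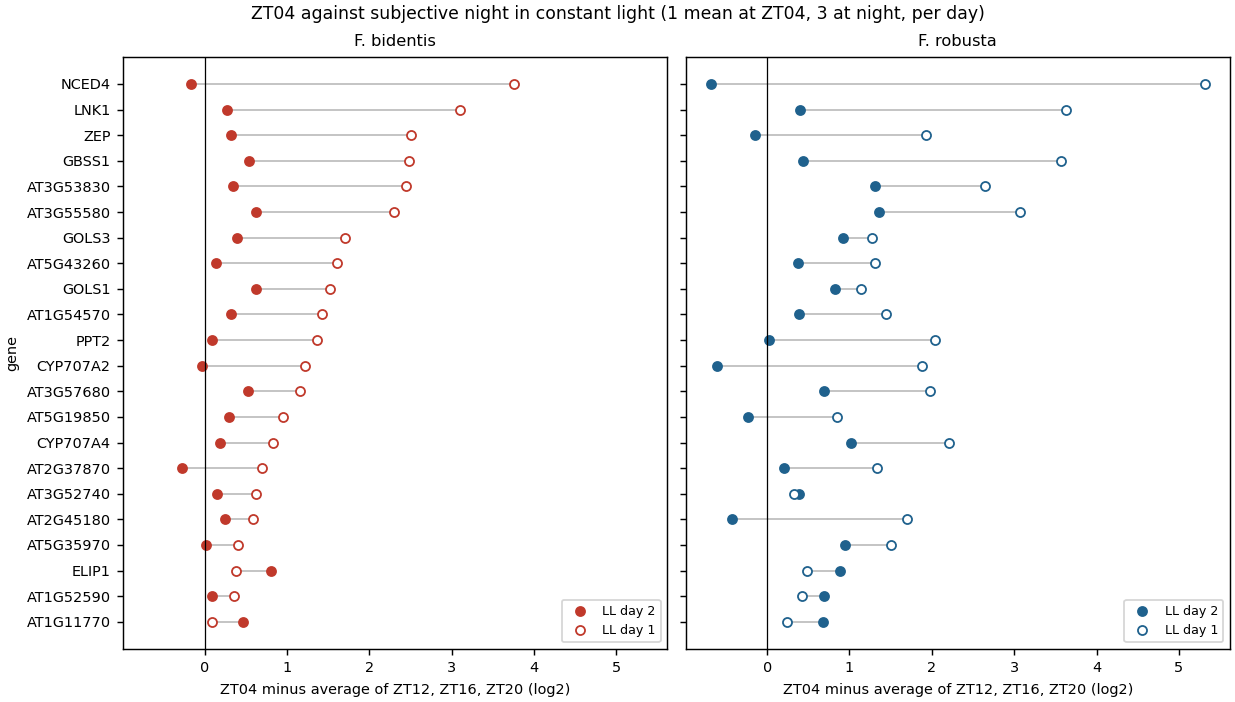
ZT04 minus the average of ZT12, ZT16 and ZT20 on the log2 scale, for each gene on LL day 2 (filled) and LL day 1 (open), with F. bidentis left and F. robusta right. NCED4 and LNK1 lead on LL day 1 in both species, and on LL day 2 the values lie between -0.27 and 0.81 in F. bidentis and between -0.69 and 1.36 in F. robusta.

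The difference was wider on LL day 1. The model holds the same hour effects on both days, so this change between days enters the SEs and p-values above. Taken apart, the median of ZT04 minus night was 0.28 log2 units on LL day 2, against 1.29 on LL day 1, in F. bidentis, and 0.42, against 1.60, in F. robusta. Over all genes the medians were 0.00, against -0.25, in F. bidentis, and 0.22, against -0.16, in F. robusta. With TMM factors the members' medians were 0.29, against 1.54, in F. bidentis, and 0.18, against 1.77, in F. robusta. On LL day 2 the value was above 0 for 19 members in F. bidentis, where 49.2% of all genes were, and for 17 in F. robusta, where 75.4% were. With TMM factors it was above 0 for 19 and 15 members, beside 51.5% and 51.3% of all genes. LNK1 on LL day 2 read 83.5 RPM at ZT04 and 69.3 RPM on average at night in F. bidentis, and 46 and 34.8 RPM in F. robusta. AT3G55580 kept the widest gap in F. robusta, with 15.5 RPM at ZT04 and 5.5 RPM at night on LL day 2, though that ZT04 mean is 1 of those that stand apart. Without LL day 1 ZT04 the count at unadjusted p under 0.05 was 0 in F. bidentis and 1 in F. robusta. Without the 4 means that stand apart, which leaves LL day 1 alone for ZT04, the median in F. robusta was 1.48 and the count 16. With all genes tested, F. bidentis had 3 such members and F. robusta 8. The share of all genes at unadjusted p under 0.05 was not counted at these settings. Nothing about the set is therefore read from these counts.

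The contrast was then compared between species. By limma 0 of 22 members and 0% of all genes were called, and at unadjusted p under 0.05 0 members, with 3.29% of all genes. The median of F. bidentis minus F. robusta was -0.27 log2 units over members and -0.16 over all genes. The members of smallest p were AT5G35970 (-1.01, SE 0.48), CYP707A4 (-1.10, SE 0.62) and AT2G37870 (-0.56, SE 0.46), each with an adjusted p of 0.959. The SEs of the 22 members ran up to 1.77 (NCED4), so a call that fails here does not show that the species behave alike.

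A 24 h rhythm was fitted over the 13 LL means. limma called 0 members and 0% of all genes in both species. At unadjusted p under 0.05 there were 10 members in F. bidentis, beside 19.3% of all genes, and 13 in F. robusta, beside 13.2%. With TMM factors these were 12 members beside 12.7% and 11 beside 15.8%. Without the 4 means that stand apart the count in F. robusta was 10. The share of all genes in that fit was not counted. The fitted peak-to-trough span had a median of 1.01 log2 units over members in F. bidentis and 1.29 in F. robusta, beside 0.36 and 0.38 over all genes. LNK1 had spans of 1.91 and 2.02 with fitted peaks at 2.31 h and 4.52 h, and GBSS1 1.53 and 2.23 with peaks at 2.08 h and 1.93 h. Both fits include the morning of LL day 1.

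Matched by hour, 0 members were called between LL day 2 and LL day 1 by limma in F. bidentis, where 0.00737% of all genes were. That share is 1 gene, AT5G42800 (dihydroflavonol 4-reductase), which is outside the set and is named after its value was seen: it ran from 16 to 70 RPM on LL day 2, against 1 to 7.5 RPM on LL day 1 (adjusted p = 0.0310). At unadjusted p under 0.05, 4 members were lower on LL day 2 in F. bidentis, beside 5.76% of all genes, and 0 were higher, beside 2.12%. With TMM factors 2 were lower, beside 3.08%, and 0 were higher, beside 4.42%. The 4 were CYP707A2 (-1.14, SE 0.32), AT3G57680 (-0.81, SE 0.30), ZEP (-0.90, SE 0.39) and AT1G52590 (-0.29, SE 0.11), each with an adjusted p of 0.623.

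In F. robusta 0 members and 0% of all genes were called. Unadjusted, 4 members were higher on LL day 2, beside 12.5% of all genes, and 4 were lower, beside 2.26%. With TMM factors 1 member was higher, beside 9.13%, and 4 were lower, beside 6.64%. ELIP1 had the smallest p, with an estimate of 2.39 log2 units (SE 0.40, adjusted p = 0.0877 by limma). Its LL day 2 mean was above its LL day 1 mean at 6 of 6 hours. It was 2.16 (adjusted p = 0.854 by limma) without the 4 means that stand apart. AT2G45180 stood at -1.37 (SE 0.32, adjusted p = 0.147 by limma) and ZEP at -0.90 (SE 0.27, adjusted p = 0.218). AT2G45180 was at -0.66 without the 4 means. NCED4, at -2.39 (SE 0.90), had the lowest estimate among all 13563 genes tested, with an adjusted p of 0.294. It was lower on LL day 2 at 4 hours and higher at 2. Those 2 were ZT16 (47 RPM, against 33 on LL day 1) and ZT20 (35 RPM, against 22.5). The median estimate was 0.15 over members and 0.14 over all genes, or -0.00727 and -0.00364 with TMM factors.

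**Figure D5:**
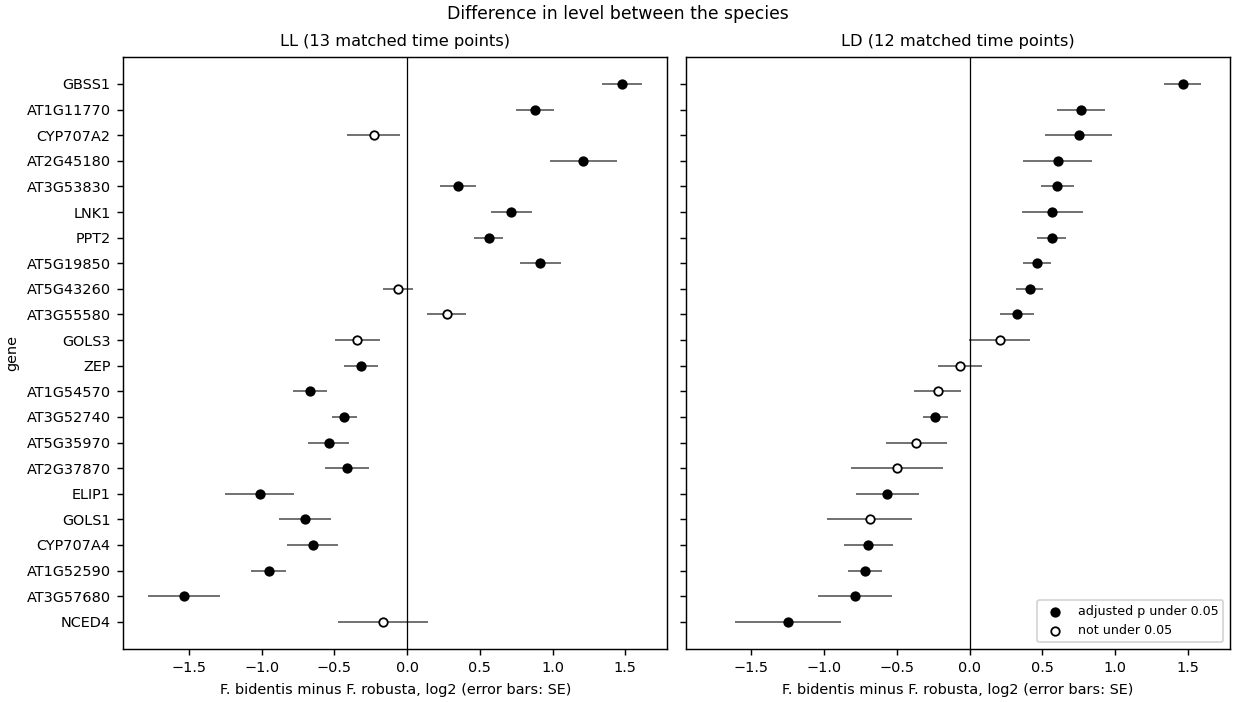
Difference in level, F. bidentis minus F. robusta, on the log2 scale for each gene in LL (left, 13 matched time points) and LD (right, 12), with SE bars and filled points where limma's adjusted p was under 0.05. GBSS1 lies furthest to the right in both, at 1.48 and 1.47.

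Levels between the species do not enter the rule beyond the 5 RPM mean and were tested at matched time points. The differences are in RPM as assigned to Arabidopsis identifiers, and any uneven assignment between the species is part of them. In LL, 7 members were higher in F. bidentis, beside 26% of all genes, and 10 were lower, beside 41.8% (limma, adjusted p under 0.05). With TMM factors the split was 8 and 8, beside 4604 and 5026 of 13532 genes. The median over all genes then moved to -0.02 log2 units, against -0.13 as deposited. In LD, 10 members were higher in F. bidentis, beside 32.3% of all genes, and 6 were lower, beside 32.5%. The same shares of all genes stand beside the counts over gene lists below. Between species 64.8% of all genes differed in LD and 67.8% in LL, so 16 and 17 of 22 members is not a result about this set as a whole.

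GBSS1 was higher in F. bidentis at every matched time point. It ran from 202.5 to 1873 RPM in F. bidentis LL (median 544), against 29.5 to 858.5 RPM in F. robusta (median 173.5), a difference of 1.48 log2 units (SE 0.14, adjusted p = 2.8e-08 by limma). In LD it ran from 103.5 to 1975.5 RPM in F. bidentis (median 508.5), against 29.5 to 950 RPM (median 172.75), a difference of 1.47 (SE 0.13, adjusted p = 6.0e-08 by limma). The ranges overlap because the daily swing is wider than the species difference. PPT2 differed by 0.56 in LL and 0.57 in LD, higher at 12 of 13 and 12 of 12 time points. Of the 15 starch synthesis genes tested, 9 were higher and 3 lower in F. bidentis in LL (10 and 1 with TMM factors), and 9 were higher and 2 lower in LD.

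LNK1 (0.72 in LL, 0.57 in LD), AT1G11770 (0.88 and 0.76), AT5G19850 (0.91 and 0.46), AT2G45180 (1.21 and 0.61) and AT3G53830 (0.35 and 0.60) were also higher in F. bidentis in both regimes. AT2G45180 stood at 0.79 in LL without the time points of the 4 means. In LD its call was lost without LD day 2 ZT12 and ZT16. Those of LNK1 and AT3G55580 were lost when 1 time point was left out in both species (adjusted p = 0.0621 and 0.0542 by limma). CYP707A2 (0.75), AT5G43260 (0.41) and AT3G55580 (0.33) passed in LD and were at -0.23, -0.06 and 0.27 in LL, where they did not pass (AT3G55580 did with TMM factors, adjusted p = 0.00321 by limma). Of the 16 core clock genes tested, 4 were higher and 6 lower in F. bidentis in LL (7 and 4 with TMM factors), and 8 were higher and 4 lower in LD.

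Genes lower in F. bidentis included the protective ELIP1. In LL it ran from 23.5 to 396 RPM in F. bidentis (median 253.5), against 57 to 1179.5 RPM in F. robusta (median 493.5), a difference of -1.01 log2 units (SE 0.24, adjusted p = 0.00118 by limma). Without the time points of the 4 means that stand apart it was -0.61 (adjusted p = 0.0412 by limma). In LD the difference was -0.56 (SE 0.22, adjusted p = 0.0340 by limma). That call was lost without LD day 2 ZT12 and ZT16, when it was -0.30 (adjusted p = 0.152 by limma). Of the 6 light stress proteins tested, 0 were higher and 5 lower in F. bidentis in LL (3 lower with TMM factors), and 0 were higher and 4 lower in LD.

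The peptidase gene AT3G57680 was lower in F. bidentis by 1.53 log2 units in LL. It ran from 18 to 81.5 RPM there (median 35), against 39 to 256.5 RPM in F. robusta (median 106), and was higher in F. robusta at 12 of 13 time points. AT1G52590 (-0.95 in LL, -0.72 in LD), CYP707A4 (-0.65 and -0.70) and AT3G52740 (-0.43 and -0.24) were lower in F. bidentis in both regimes. The LD calls of AT3G57680 (-0.79) and AT3G52740 were lost without LD day 2 ZT12 and ZT16 (adjusted p = 0.0578 and 0.0555 by limma). GOLS1 (-0.70), AT1G54570 (-0.67), AT5G35970 (-0.54), AT2G37870 (-0.42) and ZEP (-0.32) passed in LL, and in LD they were at -0.69, -0.22, -0.37, -0.50 and -0.07 without passing (GOLS1 did with TMM factors, adjusted p = 0.0447 by limma). The LL calls of GOLS1, CYP707A4, AT5G35970 and AT2G37870 were lost without the 4 means that stand apart (adjusted p between 0.0576 and 0.0822 by limma). With TMM factors those of AT2G37870 and ZEP were lost.

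NCED4 was lower in F. bidentis in LD and not in LL. In LD it ran from 13 to 699.5 RPM in F. bidentis (median 99), against 30 to 1773.5 RPM in F. robusta (median 292.5), a difference of -1.25 log2 units (SE 0.36, adjusted p = 0.00703 by limma). In LL the difference was -0.17 (SE 0.31, adjusted p = 0.654 by limma). Whether the LL and LD differences differ from each other was not tested. Of the 13 carotenoid synthesis genes tested, 4 were higher and 7 lower in F. bidentis in LL (5 and 4 with TMM factors), and 3 were higher and 6 lower in LD. By limma 0 genes of the carotenoid, starch, light stress and core clock lists were called in any LL contrast within a species. At unadjusted p under 0.05 the rhythm fit held 9 of 16 core clock genes in F. bidentis and 12 in F. robusta.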

How the data were processed

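The deposited table gives, per Arabidopsis gene identifier, a mean RPM per time point, computed by the authors from its libraries. The submitters' processing notes name CASAVA and TAIR10 without their roles, and the aligner is not given in the sources used here. Reads were 100 bp single reads with 12 libraries per lane, per the labels' protocols. The 50 columns of means were used. The 200 columns per library carry numbers that match no sample title and were not used, so depth and replicate spread are unknown here. The p-values measure the scatter of time-point means, which may be technical. The LL models within a species hold the same daily pattern on both days. A swing that changes from LL day 1 to LL day 2 therefore also counts as scatter.

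The scale of analysis was log2(mean RPM + 1). Models used limma 3.58.1 under R 4.3.3, with trend and robust variance moderation. The 13563 genes averaging at least 1 RPM were tested, all 22 members among them, with Benjamini-Hochberg adjustment over all and a threshold of 0.05. Within LL, models held hour and day, or a 24 h cosine and sine with a linear trend. Species were compared with the time point as block. TMM factors were computed on RPM values, trimming 30% of M and 5% of A values. The other alternatives were a pseudocount of 0.1, testing all genes, testing those from 5 RPM, no linear trend and each time point left out.

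The members, gene lists and tests were chosen with earlier results of these data known. Named members are those on a fixed list, the 10 of highest mean, the 10 of largest LD ratio, up to 5 per direction past a threshold or the 3 of smallest p, up to 5 genes on either side of the ratio of 3, and any member described as a regulator. Other members are named after their values were seen.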

Additional observations from a re-analysis of the deposited data

How the results depend on the processing

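Members called in the 7 LL contrasts stayed at 0 with TMM factors, a pseudocount of 0.1, all genes tested or those from 5 RPM, and, for the rhythm, no linear trend. In LL day 2 against day 1 in F. robusta, 0 to 1 members were called when each mean was left out in turn, the 1 being reached without LL day 1 ZT16 or without LL day 2 ZT16. The rule gave 40 members with TMM factors. Members lower in F. bidentis numbered 3 in LD without LD day 2 ZT12 and ZT16 (chosen after seeing the data, as was leaving out the 4 F. robusta LL means) and 6 in LL without the 4 means. In either direction 12 members and 8431 genes were then called in LD, and 14 members and 8768 genes in LL. With all time points 8789 genes were called in LD and 9189 in LL. The cause of these shifts was not tested. Without a filter, all-gene counts were 11, 8 and 5 for ZT04 against subjective night in F. bidentis, F. robusta and their difference, and 22 for LL day in F. robusta. Leaving out 1 mean gave up to 85 genes for LL day in F. robusta and up to 15 for the rhythm in F. bidentis.

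Estimates that changed sign when 1 mean was left out are given as lowest and highest. Every member was followed in this way only for ZT04 against night within a species. In the other contrasts only some members were followed, so sign changes of other members there are not listed. For ZT04 against night in F. bidentis they were CYP707A2 (-0.13 to 1.32), AT2G37870 (-0.0633 to 0.49), ELIP1 (-0.0018 to 1.19) and AT5G35970 (-0.0648 to 0.48). In F. robusta they were CYP707A2 (-0.63 to 1.91), AT2G45180 (-0.20 to 1.48) and AT5G19850 (-0.31 to 0.92). In the species difference GBSS1, among the members followed there, ran from -1.68 to 0.69. The members' median for LL day in F. robusta was -0.00727 with TMM factors. LD species calls were lost for AT3G55580 with a pseudocount of 0.1 and for AT2G45180, ELIP1 and LNK1 without a filter. They were lost for AT2G45180, ELIP1, AT3G52740 and AT3G57680 without LD day 2 ZT12 and ZT16 (adjusted p 0.166, 0.152, 0.0555 and 0.0578 by limma). Leaving out 1 time point in both species lost those of AT2G45180, ELIP1, AT3G52740, AT3G55580 and LNK1 in LD and that of ZEP in LL.

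No paired analysis was possible because the means carry no replicate number. Depth per library is unknown, values come in steps of 0.5 RPM, and low members such as GOLS1 and AT3G53830 therefore have coarse folds.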
